A study of Mus musculus with 8 samples.

Results

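Haem synthesis and the uptake of the iron it consumes were followed in progenitors sorted from mouse bone marrow, through 9 genes: Alas1, Alas2, Alad, Uros, Urod, Cpox, Ppox and Fech, which encode enzymes of the haem pathway, and Tfrc, which encodes the transferrin receptor. The members are the genes whose RefSeq transcript is named by at least 1 non-control probe of the array, and the 9 genes were read by 12 of the 55681 probes, which name 20145 gene symbols in all. All 12 probes passed the filter on dim probes, so all 9 members were among the 28088 features tested. Alas1 had 2 probes, Tfrc had 3 and every other member had 1. The genes lie on chromosome 9 (Alas1), X (Alas2), 4 (Alad and Urod), 7 (Uros), 16 (Cpox and Tfrc), 1 (Ppox) and 18 (Fech).

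There were 8 one-colour Agilent arrays in 4 groups of 2: LSK and GMP cells, each from wild-type and from ACKR1-deficient mice. LSK cells (lineage-negative, positive for Sca1 and cKit) hold haematopoietic stem cells and multipotent progenitors, and GMP cells (lineage-negative, Sca1-negative, positive for cKit, CD34 and CD16/32) hold granulocyte-monocyte progenitors. All mice were female, 12 weeks old and of strain C57/Bl6. The deficient line lacks ACKR1, a chemokine-binding protein of the red-cell membrane that does not signal through G proteins; the labels do not describe the allele further. The line had been backcrossed onto C57Bl/6J, with wild-type littermates as controls. The labels do not say whether an array held RNA of 1 mouse or of a pool, nor whether the 2 arrays of a group came from separate mice, so the p-values reflect how much these arrays scatter and that scatter may be technical.

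Haem is made from glycine and succinyl-CoA in steps divided between mitochondria and cytosol. The first step, 5-aminolevulinate synthase, sets the rate and exists in 2 forms from separate genes: ALAS1 in all cells, which haem represses, and ALAS2 in cells of the red lineage, where GATA1 drives transcription and iron controls translation. Red-cell precursors make most of the haem of the body and take up iron as transferrin through TFRC, whose mRNA is stabilised when iron is short. Granulocytes need haem for myeloperoxidase and for the cytochrome of the NADPH oxidase, and draw on the same enzymes with ALAS1 at the first step.

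Levels are log2 signal relative to the 75th percentile of the same array, so 0 is a bright spot for that array. Levels of different probes are not comparable and only differences between groups are. On 7 arrays 62.5% to 73.1% of spots were well above background, against 34.3% on deficient LSK replicate 2, which correlated at r = 0.78 with its own replicate across features. Deficient GMP replicate 1 also stood apart (r = 0.898 with its replicate, where the wild-type pair of GMP arrays had 0.976). All deficient arrays lay in 1 slide column and all wild-type arrays in the other, which means that genotype and column cannot be told apart. The Ackr1 probe gave −0.66 and −1.05 in wild-type LSK against −0.70 and −0.85 in deficient LSK, the last not well above background. In GMP it gave −0.50 and −0.45 in wild type against −0.07 and −0.16 in deficient cells. The labels do not say whether this probe lies in the deleted part. Between wild-type GMP and LSK, 5 of 10 stem and multipotent markers were lower and 6 of 10 GMP markers higher (limma, adjusted p under 0.05), among them Procr (−5.56) and Ms4a3 (7.68). Ly6a, which encodes the gate antigen Sca1, overlapped between them, with 1.83 and 3.79 in LSK and 2.83 and 3.11 in GMP, and between deficient GMP and LSK 0 markers of either list were called.

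Between genotypes, 1 of the 9 members, Alas2, was higher in deficient cells, by a log2 of 8.20 in LSK, 9.50 in GMP and 8.85 in the average of both, and 0 members were lower (limma, Benjamini-Hochberg adjusted p under 0.05 over all 28088 features). The share of all features called was 0.239% in LSK, 0.146% in GMP and 0.602% in the average. In the average, the last enzyme, Fech (2.33), and Tfrc at the brightest of its 3 probes (2.31) had the next largest differences, with all 4 deficient arrays above all 4 wild-type arrays, but did not pass. Ppox, the enzyme before Fech, lay lower on all 4 deficient arrays than on any wild-type array and did not pass either. In all, 4 members (Alas2, Urod, Fech and, at that probe, Tfrc) had every deficient array above every wild-type array, as did 2.99% of all features, 1 (Ppox) had every one below, as did 1.26%, and in the other 4 the genotypes overlapped. With the mean of a gene's probes, the first count was 3. At an unadjusted p under 0.05 there were 3 members in LSK, 4 in GMP and 4 in the average, where 2479, 1355 and 3417 of all features reached it. The median difference of the 9 members was 0.72 in LSK, 0.89 in GMP and 0.71 in the average, beside 0.12, 0.16 and 0.17 over all features tested.

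**Figure D1:**
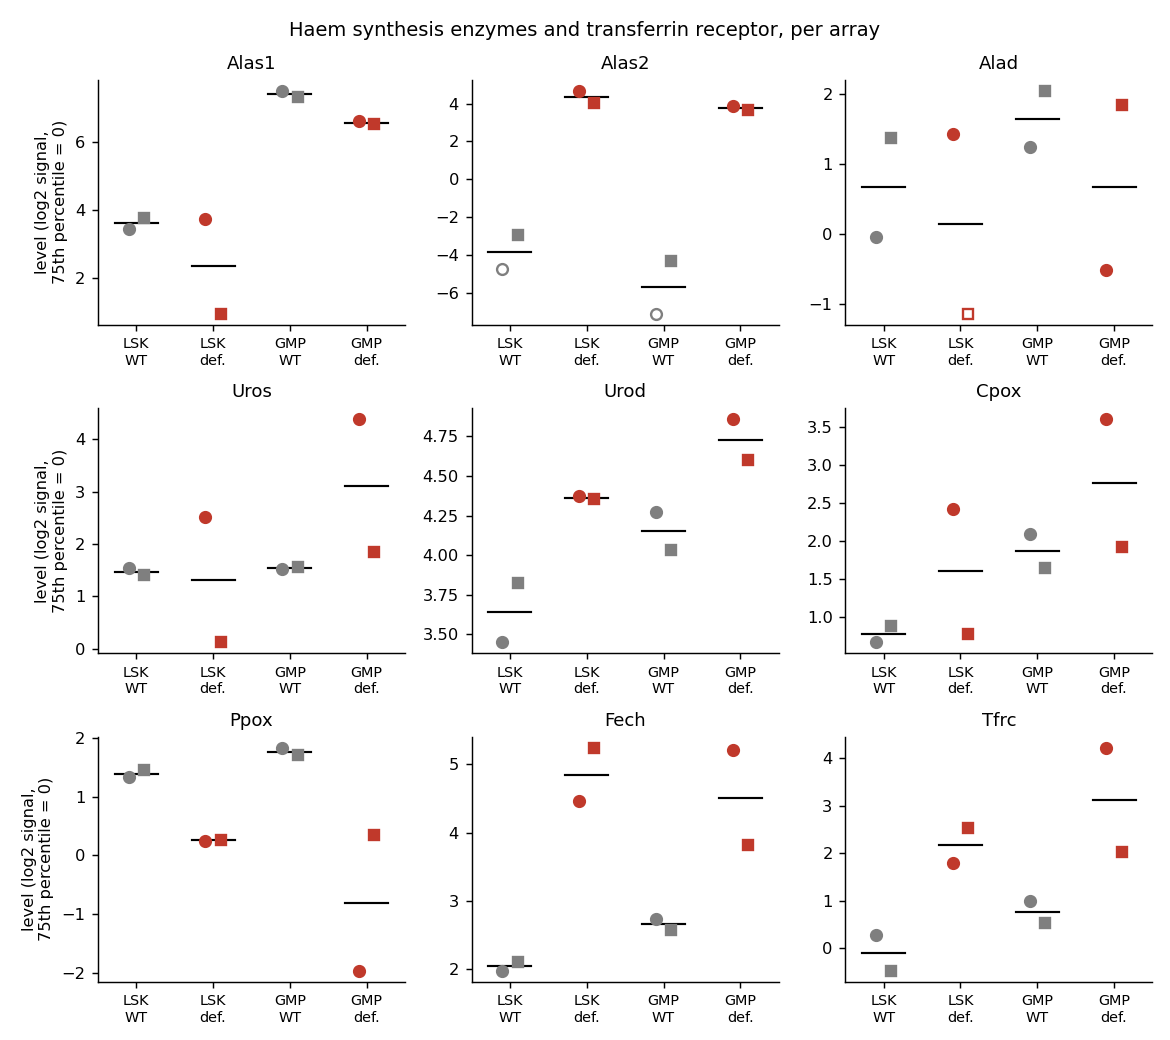
Level of each member on every array (log2 signal, 75th percentile of the array at 0), at the probe with the highest mean, with grey for wild type, red for deficient, circles for replicate 1, squares for replicate 2 and a line at the group mean. Hollow symbols were not well above background. Alas2 lies between −7.11 and −2.96 on the wild-type arrays and between 3.66 and 4.68 on the deficient arrays, and Ppox is the member with all deficient arrays below all wild-type arrays.

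Alas2, the erythroid form of the first enzyme, gave −4.74 and −2.96 on the wild-type LSK arrays and 4.68 and 4.03 on the deficient LSK arrays. In GMP it gave −7.11 and −4.33 in wild type and 3.89 and 3.66 in deficient cells. The genotypes did not come near each other in either population, and the wild-type values were dim, with 1 of 2 arrays well above background in each population against both deficient arrays. The filter on dim probes asks for signal on both arrays of some group, so Alas2 passed it only through the deficient groups, where it is high. The standard errors were 0.973 for either population and 0.688 for the average, with adjusted p of 0.0113, 0.00977 and 0.000588 in LSK, GMP and the average (limma). Within the slide rows, which pair a wild-type with a deficient array of the same population, it was 9.41 and 6.99 in LSK and 11.01 and 7.98 in GMP, where 6.99 and 7.98 are those against a wild-type array well above background. The size of the fold is thus set by dim wild-type values, and normexp background correction, which raises dim values, put it at 42.4-fold in LSK, 62.2-fold in GMP and 51.3-fold in the average. In bulk RNA of sorted cells, fewer cells of a type and less RNA per cell cannot be told apart, so neither can more cells with Alas2 and more Alas2 per cell. The size of the difference did not itself differ by a detectable amount between GMP and LSK (1.29, 95% interval −1.78 to 4.37, limma, adjusted p = 0.961).

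The call in the average held under every alternative that kept the probe (limma, adjusted p under 0.05). The calls in the single populations were lost under several changes of arrays or processing. Where they were lost, the difference was still 7.31 to 8.96 in LSK and 8.58 to 9.61 in GMP. In LSK the call was lost without wild-type LSK replicate 1 (7.31, adjusted p = 0.121), without deficient LSK replicate 2 (8.52, adjusted p = 0.129), under median scaling (adjusted p = 0.185), quantile normalization (0.0503), no filter on dim probes (0.0501) and array weights (0.652). In GMP it was lost without deficient replicate 1 (9.38, adjusted p = 0.163) or 2 (9.61, adjusted p = 0.0517), under quantile normalization (0.117), median scaling (0.146) and with GMP fitted on its own (0.247). Without the 2 deficient arrays that stood apart, 1 of each population, the differences were 8.52 and 9.38 with adjusted p of 0.155 and 0.22. Normexp correction kept the calls at smaller differences of 5.41 in LSK, 5.96 in GMP and 5.68 in the average. Without deficient LSK replicate 2, limma called 0 of all features in LSK (1104 at an unadjusted p under 0.05), so the lost call there is not particular to Alas2.

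Alas1, the form of the first enzyme found in all cells, did not pass the test between genotypes. At its brighter probe (A_55_P2083649) it gave 3.45 and 3.78 on the wild-type and 3.74 and 0.96 on the deficient LSK arrays, with 7.49 and 7.32 on the wild-type and 6.60 and 6.53 on the deficient GMP arrays. The groups stood in the order deficient LSK, wild-type LSK, deficient GMP and wild-type GMP, with the first pair overlapping and the low value on the array of weak signal. Deficient minus wild type was −1.26 in LSK (SE 0.875, limma, adjusted p = 0.592), and in GMP it was −0.84 (adjusted p = 0.97). Without deficient LSK replicate 2 the LSK difference was 0.13, and with replicate 1 removed, so that the weak array is the only deficient LSK sample, it was −2.65 and passed (adjusted p = 0.0416), in a fit that took the spread of that arm from the other groups and called 10.1% of all features. The other probe of Alas1 (A_55_P1959985) gave −0.99 and −1.17 in wild-type LSK and −0.04 and 0.78 in deficient LSK, a difference of 1.46 in the opposite direction (adjusted p = 0.574). In GMP it gave 0.27 and 0.53 in wild type and 0.41 and −0.61 in deficient cells. With both deficient arrays, the sign of an Alas1 genotype difference in LSK therefore differed between the probes. Without the array of weak signal it was positive at both, with −0.04 against −0.99 and −1.17 at this second probe.

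The windows of 250 bases before the annotated start of Alas2, Alas1, Cpox and Ppox are given to set the erythroid form of the first enzyme beside the form of all cells, and Cpox, 1 of 3 members with GATA matches, beside Ppox, which lay lower on the deficient arrays. They are RefSeq sequences on build GRCm38.p6, at chrX:150547167-150547416 (plus strand, Alas2), chr9:106247955-106248204 (minus strand, the more upstream of 2 annotated starts of Alas1), chr16:58669958-58670207 (plus strand, Cpox) and chr1:171281187-171281436 (minus strand, Ppox), each written 5′ to 3′ in the direction of the gene. Capitals mark matches on either strand to 4 forms of the motif of GATA factors (AGATAA as well as TGATAA, and the same ending in G, AGATAG as well as TGATAG), and to CCACCC, the core of the motif of KLF factors.
Alas2: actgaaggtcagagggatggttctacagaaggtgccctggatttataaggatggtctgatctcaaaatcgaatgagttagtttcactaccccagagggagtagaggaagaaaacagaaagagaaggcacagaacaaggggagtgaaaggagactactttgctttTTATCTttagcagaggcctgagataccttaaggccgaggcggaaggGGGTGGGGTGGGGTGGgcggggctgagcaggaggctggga
Alas1: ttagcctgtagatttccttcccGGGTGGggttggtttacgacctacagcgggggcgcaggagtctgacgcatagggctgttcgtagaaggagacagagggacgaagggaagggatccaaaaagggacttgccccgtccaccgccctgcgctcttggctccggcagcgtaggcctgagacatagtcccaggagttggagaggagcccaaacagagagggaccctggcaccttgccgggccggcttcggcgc
Cpox: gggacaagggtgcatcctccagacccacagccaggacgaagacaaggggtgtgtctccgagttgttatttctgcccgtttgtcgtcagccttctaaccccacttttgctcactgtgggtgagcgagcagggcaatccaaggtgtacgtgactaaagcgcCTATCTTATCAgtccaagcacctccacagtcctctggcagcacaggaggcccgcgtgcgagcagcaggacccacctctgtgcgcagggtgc
Ppox: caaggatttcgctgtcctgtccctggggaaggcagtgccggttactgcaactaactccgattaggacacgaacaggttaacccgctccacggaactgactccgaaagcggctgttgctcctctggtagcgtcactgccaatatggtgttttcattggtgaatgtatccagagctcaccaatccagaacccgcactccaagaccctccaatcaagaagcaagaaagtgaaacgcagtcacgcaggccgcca

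The Alas2 window held 1 GATA match, at −86 to −81 with −1 the base before the start, and 3 KLF matches between −40 and −25, in which neighbouring matches share 1 base. The Alas1 window held 0 GATA matches and 1 KLF match at −228 to −223. The Cpox window held 2 GATA matches between −91 and −81 that share 1 base and 0 KLF matches, and the Ppox window held neither. RefSeq windows were used for 8 of the 9 members, 12 windows in all, and Fech was left out. At least 1 window had a GATA match in 3 members (Alas2, Cpox and Uros) and a KLF match in 3 (Alas2, Alas1 and Tfrc). Counted by window, 3 of the 12 (25%) held a GATA match and 3 a KLF match, near the 26.5% and 28.1% among 32851 windows of the same length. A match is a string of letters and not a measured binding site.

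**Figure D2:**
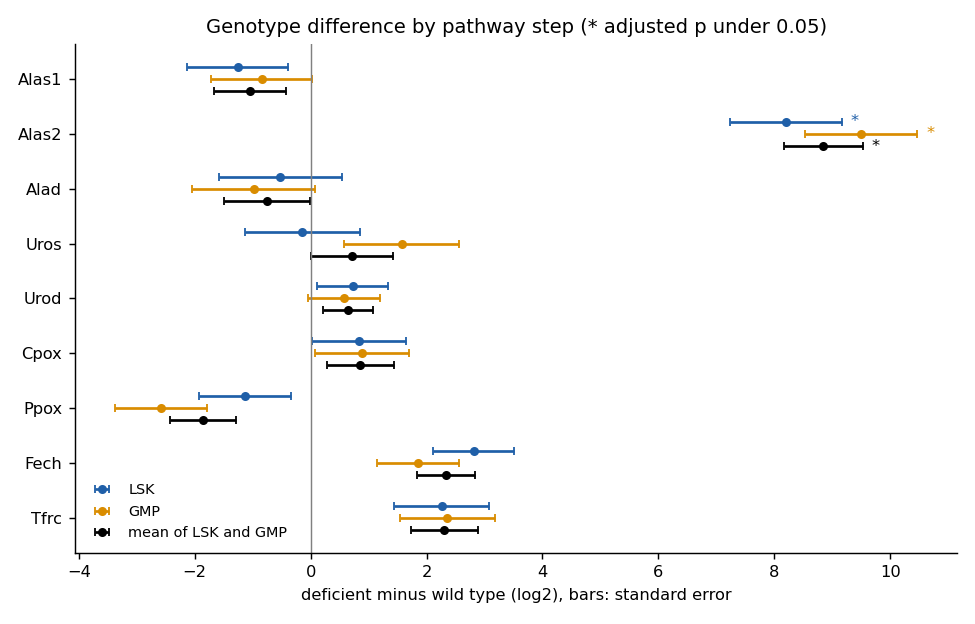
Deficient minus wild type (log2) for each member in pathway order, in LSK (blue), GMP (orange) and their average (black), with bars of 1 standard error from limma. The asterisks at Alas2 mark an adjusted p under 0.05, and Fech and Tfrc lie to the right of 0 and Ppox to the left in both populations.

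The enzymes of the cytosolic steps between the first and the last mitochondrial reactions did not pass the test between genotypes. Alad, aminolevulinate dehydratase, gave −0.04 and 1.38 in wild-type LSK against 1.43 and −1.15 in deficient LSK (the second not well above background), and 1.25 and 2.05 in wild-type GMP against −0.52 and 1.85 in deficient GMP. All 4 groups overlapped, and the differences of −0.52 in LSK and −0.98 in GMP (limma, adjusted p = 0.818 and 0.972) turned to 0.76 without deficient LSK replicate 2, to 0.19 without wild-type LSK replicate 2 and to 0.20 without deficient GMP replicate 1.

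Uros, uroporphyrinogen III synthase, gave 1.54 and 1.40 on the wild-type and 2.52 and 0.12 on the deficient LSK arrays, with 1.53 and 1.56 on the wild-type and 4.38 and 1.85 on the deficient GMP arrays. Both deficient GMP arrays lay above the wild-type ones, by 2.86 and 0.29 within their rows, and the average GMP difference of 1.57 did not pass (SE 0.992, adjusted p = 0.955). In LSK the sign of the difference (−0.15) turned without deficient LSK replicate 2 (1.05). Urod, uroporphyrinogen decarboxylase, was steady within groups, with 3.45 and 3.83 in wild-type LSK against 4.37 and 4.35 in deficient LSK, and 4.28 and 4.03 in wild-type GMP against 4.86 and 4.60 in deficient GMP. Its 4 deficient arrays lay above its 4 wild-type arrays, by a small margin that was lost under normexp correction, median scaling and in the authors' deposited table. The differences were 0.72 in LSK, 0.58 in GMP and 0.65 in the average (SE 0.433, adjusted p = 0.554), and the LSK value was −0.08 under normexp correction.

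Among the mitochondrial enzymes of the last steps, Cpox, coproporphyrinogen oxidase, gave 0.67 and 0.88 on the wild-type and 2.42 and 0.77 on the deficient LSK arrays, with 2.09 and 1.65 on the wild-type and 3.61 and 1.92 on the deficient GMP arrays. Replicate 1 was the high array in both deficient groups, and the genotypes overlapped in both populations. The average difference was 0.86 (SE 0.574, limma, adjusted p = 0.555).

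Fech, ferrochelatase, which inserts iron into protoporphyrin, gave 1.98 and 2.10 in wild-type LSK and 4.46 and 5.24 in deficient LSK. In GMP it gave 2.74 and 2.58 in wild type and 5.21 and 3.82 in deficient cells. The lowest deficient array stood 1.08 above the highest wild-type array. The differences were 2.81 in LSK (SE 0.703, adjusted p = 0.306, 7.02-fold), 1.85 in GMP (adjusted p = 0.944, 3.62-fold) and 2.33 in the average (SE 0.497, 95% interval 1.22 to 3.44, adjusted p = 0.12). Within slide rows they were 2.48 and 3.14 in LSK and 2.47 and 1.24 in GMP. With slide row as a block the average passed (adjusted p = 0.0349), in a fit that called 3 members (Alas2, Fech and Tfrc) and 3.22% of all features. Without the array of weak signal the LSK difference was 2.42 (adjusted p = 0.875).

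Ppox, protoporphyrinogen oxidase, which makes the substrate of ferrochelatase, ran the other way. It gave 1.34 and 1.45 in wild-type LSK and 0.25 and 0.27 in deficient LSK, with a spread inside each group far smaller than the step between them. In GMP it gave 1.84 and 1.71 in wild type and −1.96 and 0.35 in deficient cells, the lowest value being on the array that stood apart. The differences were −1.14 in LSK (SE 0.798, limma, adjusted p = 0.595), −2.58 in GMP (adjusted p = 0.673) and −1.86 in the average (SE 0.564, 95% interval −3.12 to −0.60, adjusted p = 0.331). Within slide rows they were −1.09 and −1.19 in LSK and −3.80 and −1.36 in GMP. All deficient arrays stayed below all wild-type arrays under normexp correction, quantile normalization, median scaling and in the authors' deposited table. Leaving arrays out or changing the filter could not undo this separation. Without deficient GMP replicate 1 the GMP difference was −1.43.

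Ppox lies on chromosome 1, as does Ackr1, with 40 tested genes between them in RefSeq order. Its 40 nearest tested neighbours, 20 on each side, had a median average difference of −0.16, between −1.44 and 6.37, and 0 of them lay below Ppox. In LSK the median of the neighbours was −0.24 and 6 lay below Ppox (Ufc1, with −1.51, and Pfdn2, with −1.53, the lowest). In GMP the median was 0.07 and 1 lay below Ppox, Sh2d1b1 with −2.76, while Dedd had −2.47. These 4 neighbours were chosen for their values, and none passed the test. In the average, 2 neighbours were called, both higher in deficient cells: Itln1, an intelectin gene (6.37, adjusted p = 0.000636), and Fcrla, a gene of B cells (2.82, adjusted p = 0.0361), whose call was lost in 13 of 20 alternatives.

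**Figure D3:**
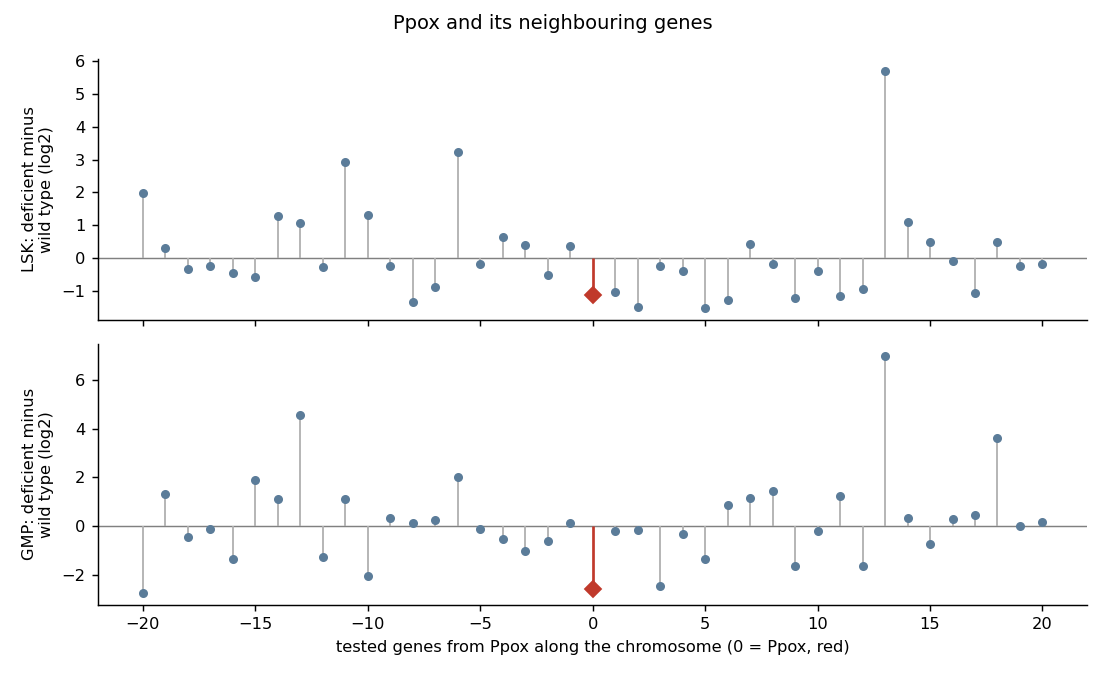
Deficient minus wild type (log2) for Ppox (red diamond, at 0) and the 20 tested genes on each side of it in gene order on chromosome 1, in LSK (upper panel) and GMP (lower panel). The 40 neighbours scatter around 0 with medians of −0.24 in LSK and 0.07 in GMP.

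Tfrc, the receptor that brings transferrin-bound iron into the cell, was read by 3 probes that did not move alike. The brightest on average (A_65_P06446) gave 0.28 and −0.47 in wild-type LSK against 1.79 and 2.54 in deficient LSK, and 0.99 and 0.53 in wild-type GMP against 4.21 and 2.02 in deficient GMP. All 4 deficient arrays lay above all 4 wild-type arrays, with differences of 2.26 in LSK (SE 0.822, limma, adjusted p = 0.55), 2.36 in GMP (adjusted p = 0.86) and 2.31 in the average (SE 0.582, adjusted p = 0.227). With slide row as a block the average passed (adjusted p = 0.0377).

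A_52_P228236, which is spotted 10 times on each array and is the most densely sampled of the 3 Tfrc probes, gave −0.65 and 0.60 on the wild-type and 1.12 and −2.56 on the deficient LSK arrays (the second not well above background), with 1.71 and 1.97 on the wild-type and 0.58 and 1.63 on the deficient GMP arrays. In GMP both deficient arrays lay below the wild-type ones at this probe, and its differences were −0.70 in LSK, −0.73 in GMP and −0.72 in the average (adjusted p between 0.722 and 1 when all probes were tested separately). The sign in LSK rested on deficient replicate 2, as replicate 1 (1.12) lay above both wild-type arrays. The dim probe A_51_P167876 gave −4.04 and −4.34 in wild-type LSK against −2.65 and −3.24 in deficient LSK, and −3.34 and −2.74 in wild-type GMP against −3.93 and −1.45 in deficient GMP, with differences of 1.24 and 0.35. With the mean of the 3 probes as the value of the gene, the average difference of Tfrc was 0.80 and the genotypes overlapped. The direction of Tfrc is therefore a statement about a probe, in LSK only with the array of weak signal included. Where in the transcript each probe lies was not analysed here.

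**Figure D4:**
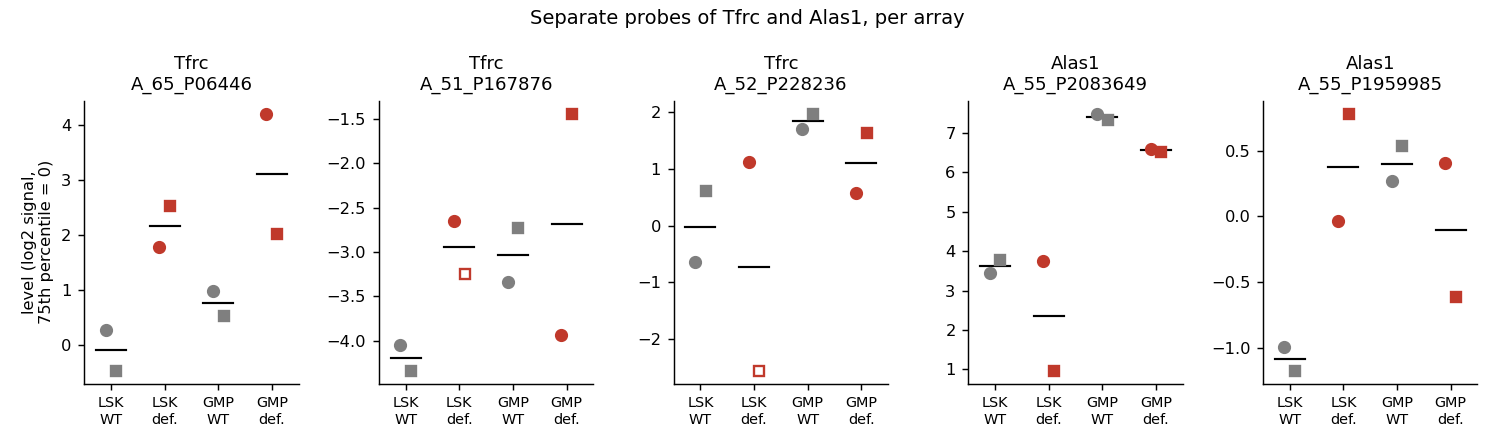
Levels (log2 signal, 75th percentile of the array at 0) at each of the 3 probes of Tfrc and the 2 probes of Alas1 on every array, with the symbols of the plot of all members. At A_65_P06446 the deficient arrays lie above the wild-type ones, whereas at A_52_P228236 the deficient GMP arrays lie below them.

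Genes that work beside the members were followed through lists of partners of haem synthesis, iron uptake and storage, iron sensing, haem export and breakdown, and erythroid regulators, which hold 16, 14, 5, 9 and 8 genes, all tested except 1 of the haem export list. In LSK, GMP and the average, 0 of their tested genes were called higher and 0 lower (limma). Among the partners of synthesis the median difference was −0.77 in LSK, −0.25 in GMP and −0.50 in the average. On deficient LSK replicate 2, 10 of these 16 genes were well above background, and without that array the medians were −0.06 in LSK and −0.04 in the average, beside −0.08 and 0.04 over all features. Abcb10, a mitochondrial transporter that stabilises the iron importer mitoferrin 1 in red-cell precursors, had 1.89 in LSK and 1.51 in GMP (adjusted p = 0.551 and 0.955). Fdx2, a ferredoxin of iron-sulphur cluster assembly, had −1.49 and −1.54 (adjusted p = 0.551 and 0.955).

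In the list of iron uptake and storage the medians were −0.86, 0.09 and −0.38, and without the array of weak signal −0.12 in LSK and −0.16 in the average. Slc25a37, mitoferrin 1, which carries iron into mitochondria of erythroid cells, gave 3.65 and 3.64 on the wild-type and 5.61 and 5.23 on the deficient LSK arrays, with 3.71 and 3.61 on the wild-type and 5.11 and 4.41 on the deficient GMP arrays. The deficient arrays lay above the wild-type ones throughout, and the average difference of 1.44 did not pass (SE 0.444, limma, adjusted p = 0.336). Slc25a28, mitoferrin 2, the form of other tissues, had −1.25 in LSK and −1.55 in GMP (adjusted p = 0.588 and 0.955), and −0.18 in LSK without that array. Slc40a1, ferroportin, the iron exporter of the cell membrane, had 3.11 in LSK and 1.88 in GMP, with every deficient array above every wild-type array (average 2.49, adjusted p = 0.168).

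The iron sensing genes had medians of −0.06, −0.32 and 0.03 in LSK, GMP and the average, with Aco1, iron regulatory protein 1, at −0.45 in GMP (adjusted p = 1). In LSK, Aco1 was not well above background on the array of weak signal, and its difference was 0.58 without it. The haem export and breakdown genes had medians of −0.85, 0.29 and −0.17, the first of which was −0.13 without the array of weak signal. Blvrb, biliverdin reductase B, an abundant red-cell enzyme, had 0.97 in LSK and 1.79 in GMP with all deficient arrays above all wild-type arrays (adjusted p = 0.585 and 0.893), and Hmox2, the constitutive haem oxygenase, had −1.39 and −1.65 (adjusted p = 0.568 and 0.955). Among the erythroid regulators the medians were 0.06, 1.98 and 0.98, with 4, 7 and 7 of the 8 above 0. Nfe2 gave 5.1 and 5.12 on the wild-type LSK arrays and 4.86 and 3.44 on the deficient LSK arrays, the last on the array of weak signal. Without the array of weak signal, the LSK difference of Nfe2 was −0.25 and the LSK median of the list was 0.56. Gata1, which drives Alas2 transcription, gave −0.45 and 0.60 in wild-type LSK against 1.94 and 1.78 in deficient LSK, and 0.48 and 0.51 in wild-type GMP against 2.78 and 2.53 in deficient GMP. Its deficient arrays lay above all wild-type arrays, with an average difference of 1.97 (SE 0.46, adjusted p = 0.168), and so did those of Epor, the erythropoietin receptor (2.65, adjusted p = 0.137), and Klf1, a factor of globin transcription (1.87, adjusted p = 0.249). Klf1 was not well above background on deficient LSK replicate 2, and its average difference was 2.12 without it (adjusted p = 0.195).

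Markers of red cells, of mature neutrophils and, in smaller number, of B cells moved with Alas2. Of 26 erythroid markers, 24 were on the array and 23 were tested, of which 6 were higher in deficient LSK, 5 in deficient GMP and 13 in the average, and 0 were lower (limma), with medians of 4.58, 4.16 and 4.29. Their summed level, in units of the 75th percentile, was 54.9 to 122 in wild-type LSK and 1590 to 8610 in deficient LSK, and 26.3 to 35.5 in wild-type GMP and 1640 to 3090 in deficient GMP, with 16 to 20 of the 24 well above background on the wild-type arrays, 17 and 24 on the deficient LSK arrays and 23 on both deficient GMP arrays. Hbb-bt, an adult beta globin gene, gave 2.42 and 2.95 on the wild-type and 7.98 and 8.31 on the deficient LSK arrays, with −1.68 and 0.19 on the wild-type and 9.47 and 8.48 on the deficient GMP arrays. Slc4a1, which encodes band 3 of the red-cell membrane, rose by 5.94 in LSK and 4.95 in GMP (adjusted p = 0.0105 and 0.0207), calls that were lost in 6 and 11 of 22 alternatives, while its call in the average was lost in 0 of 21.

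Of 9 markers of mature neutrophils, 8 were higher in deficient LSK, 6 in deficient GMP and 9 in the average, with medians of 8.72, 9.07 and 8.68. Their summed level was 3.34 to 10.6 in wild-type LSK, 1350 to 3270 in deficient LSK, 8.77 to 17.2 in wild-type GMP and 1250 to 3330 in deficient GMP, with 6 to 8 of 9 well above background on the wild-type arrays and 9 on every deficient array. Of 5 B cell markers, 1, 2 and 3 were higher, and 0 of 5 megakaryocyte and 0 of 6 macrophage markers were called. Of 10 GMP markers, 1 was higher in deficient LSK (Cebpe, a call lost in 8 of 22 alternatives) and 0 in GMP or the average. Of 10 stem and multipotent markers 0 were called. Their LSK median was −1.12, and −0.64 without the array of weak signal. Without deficient LSK replicate 2, limma called 0 markers in LSK (19 erythroid, 9 neutrophil and 3 B cell markers at an unadjusted p under 0.05), and in the average 8 of 23 erythroid, 9 of 9 neutrophil and 3 of 5 B cell markers were. Over the alternatives, each call of a listed gene in LSK was lost at least 1 and at most 14 times and in GMP at least 2 and at most 16 times, while 10 of the 25 calls in the average were lost in none. The lineage-negative gates of both sorts are meant to leave mature cells out, and how far they did so was not tested here. The part of cells with these markers in the Alas2 difference was not tested either.

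**Figure D5:**
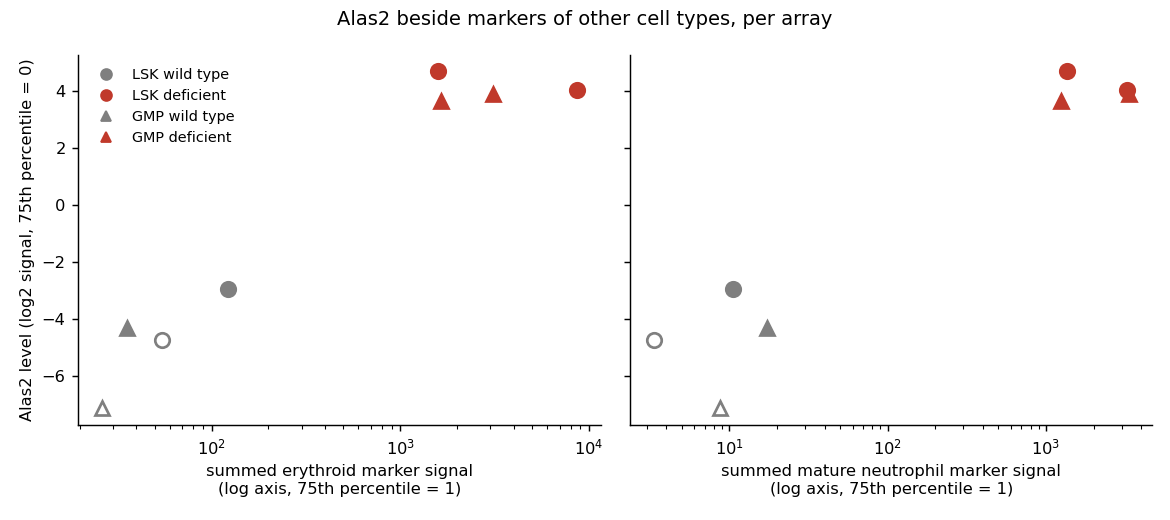
Alas2 level on each array (log2 signal, 75th percentile of the array at 0) against the summed signal of erythroid markers (left) and mature neutrophil markers (right), on log axes in units of the 75th percentile. Circles are LSK, triangles GMP, grey wild type, red deficient, and hollow symbols mark arrays where Alas2 was not well above background. The 4 deficient arrays lie at the upper right in both panels and the 4 wild-type arrays at the lower left, without an array between.

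The comparison of GMP with LSK asks which steps of the pathway differ between granulocyte-monocyte progenitors and the multipotent population. In wild-type cells 1.86% of all features were called, 141 higher and 381 lower in GMP, and 0 of the 9 members. The largest difference was that of Alas1 at its brighter probe, 3.79 (SE 0.875, 95% interval 1.84 to 5.75, 13.9-fold, limma, adjusted p = 0.0719), with both GMP arrays above both LSK arrays. It was the single member at an unadjusted p under 0.05 (2358 of all features). It passed in 8 of 22 alternatives, those being normexp correction (adjusted p = 0.0229), array weights (0.000711), the wild-type arrays alone (0.00806), slide row as a block (0.00779), the crossed replicate block (0.0325), both arrays that stood apart left out (0.00806) and either deficient LSK array left out (0.013). At the other Alas1 probe the difference was 1.48 (adjusted p = 0.652).

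Of the other 8 members, 7 lay above 0 between the wild-type populations, with differences from 0.08 (Uros) to 1.10 (Cpox, 95% interval −0.72 to 2.91) and adjusted p of 0.948 to 1, and the intervals leave room for differences of either sign. Alas2 was the exception in sign, at −1.88 (adjusted p = 0.719), with overlapping groups. The members' median was 0.62 against 0.01 over all features. Among the partners of synthesis, 14 of 16 lay above 0 with a median of 0.82, and 0 were called, the smallest p belonging to Abcb6, a porphyrin transporter (2.04, adjusted p = 0.539), and Tmem14c, a mitochondrial protein needed for porphyrin import (2.01, adjusted p = 0.587). Mpo, whose product carries haem, had 2.90 (adjusted p = 0.0583).

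Between deficient GMP and LSK, 0 members and 0% of all features were called (limma, 1 member and 4697 features at an unadjusted p under 0.05), in a comparison that includes both arrays that stood apart. Alas1 had 4.21 (SE 0.875, 18.5-fold, adjusted p = 0.14), and Alas2 had −0.58 (95% interval −2.76 to 1.59, adjusted p = 0.778). The genotype difference itself was compared between GMP and LSK for all features, and 0% were called (0 members and 695 features at an unadjusted p under 0.05). The largest member values of that comparison were 1.72 for Uros, −1.44 for Ppox and 1.29 for Alas2, with standard errors of 1.13 to 1.40.

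Members did not vary alike over the 8 arrays. As a description over 8 arrays that share 1 slide and differ in signal strength, Alas2 correlated with Fech at r = 0.874, with Tfrc at 0.741 and with Ppox at −0.784, but with Alas1 at −0.341. Fech and Tfrc had r = 0.916 with each other, Ppox and Tfrc −0.914, and Cpox and Uros 0.884. Tfrc and Alas1 were each taken at the brightest probe here, and the Tfrc probe A_52_P228236 had a genotype difference of the opposite sign in GMP. Its opposite sign in LSK rested on deficient LSK replicate 2, where it was not well above background. Among 15850 tested genes with a symbol, the 5 most like Alas2 were S100a9, a calprotectin subunit of neutrophils (r = 0.987), Retnlg, a resistin-like protein of granulocytes (0.987), Fgr, a Src-family kinase of myeloid cells (0.984), Hbb-b2, a beta globin gene (0.981), and Mgll, monoglyceride lipase (0.98). Alas2 levels fell into 2 separate sets by genotype, so that a high r here says mostly that a gene has the same 2 sets, as 90 genes did at r over 0.9.

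The genes most like Alas1 were Fdps, an enzyme of isoprenoid synthesis (r = 0.995), Dpy19l1, Gng12, Tmem165 and Gstm1, a glutathione transferase, with 575 genes over 0.9. Those most like Ppox were Sirt6, a deacylase of chromatin (r = 0.989), Zgpat, Fasn, fatty acid synthase, Pard6a and Armc5. Those most like Tfrc at its brightest probe were Knl1, a kinetochore protein (r = 0.987), Gm13547, Stfa2, Mgam and Septin10. Each of these sets holds the genes of highest r by rule, and nothing was tested on them.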

How the data were processed

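RNA extracted with Trizol was amplified, labelled with Cy3 and hybridised, per the labels. Per the file headers, the authors read the arrays with Agilent Feature Extraction 10.7.3.1 on a design of build mm9, and each processed signal is a background-corrected intensity. The authors' deposited table of normalized log2 values matched the log2 processed signals once each array's 75th percentile and then each probe's median had been subtracted (r of at least 0.999687), with column medians of −0.26 to 1.20, so its scale, centring and direction are known at that precision.

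All 8 arrays lay on 1 slide. Outlier spots (104 to 139 per array) and controls were left out, no spot was saturated (0), and replicate spots were averaged per probe. A probe stayed in if some group had it well above background on each of its 2 arrays (39098 of 55681). Probes were named by accession through the RefSeq table of GRCm38.p6, and the brightest probe on average stood for its gene. The tests used limma 3.58.1 under R 4.3.3 on 4 group means with 4 residual degrees of freedom, at a Benjamini-Hochberg adjusted p under 0.05. The number of arrays limits the precision. Normexp correction used the median signal, as the mean signal column was not at hand. In simulated data, log2 changes of 1 or 2 were recovered in 0% of cases in every comparison tried. Changes of 4 were recovered in 24% in LSK, 12% in GMP, 64% in the average and 12% between wild-type populations. Changes of 8 were recovered in 84%, 76%, 94% and 88%. A difference of about 2 that did not pass is therefore not shown to be absent.

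The members and lists were chosen with earlier results of these data known. Named besides the members are called genes of the lists, the 2 with the smallest p per list and comparison as space allowed (some genes are not reported here), and the 5 genes most like each of 4 members.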

Additional observations from a re-analysis of the deposited data

How the results depend on the processing

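Across the comparisons, 753 recomputed differences of the members kept their direction and their side of the threshold, 13 were no longer called (all Alas2), 17 were newly called (Alas1, Fech and Tfrc) and 14 turned in sign, and for these the cause was not tested unless a left-out array is named. Most of the 753 concern members not called to begin with, and leaving out a GMP array cannot change an LSK difference. They are therefore not independent checks. The count of members called in LSK was 0 under quantile normalization, median scaling, no filter on dim probes, array weights, and when the 2 arrays that stood apart were left out together, and 0 to 3 with single arrays left out. In GMP it was 0 under quantile normalization, median scaling, the GMP arrays alone and with the same 2 arrays left out, and 0 to 1 with single arrays left out. A filter that asks for signal on all 8 arrays drops Alas2 and gave 0 in LSK, GMP and the average. In the average the count was 3 with slide row as a block. Between wild-type GMP and LSK it was 1 under normexp correction, array weights, the wild-type arrays alone, slide row as a block and with the same 2 arrays left out, and 0 to 1 with single arrays left out. Between deficient GMP and LSK it was 1 under normexp correction and slide row as a block, and 0 to 1 with single arrays left out. The counts of members with all deficient arrays above or below all wild-type arrays stayed at 3 to 5 and at 1, while the share of all features ran from 1.87% to 7.77% above and from 0.955% to 6.31% below. Leaving arrays out can only keep or raise such counts, so those settings could not have lowered them.

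Same-numbered arrays, which share a slide row within a population, deviated from their group means in opposite directions in LSK (r = −0.344) and weakly together in GMP (r = 0.262). The labels tie them to no common animal or day, so the numbers were not taken as pairs. With the replicate block the counts were 1 in LSK, 1 in GMP, 1 in the average and 0 between populations. With the LSK numbers crossed, a fit added after seeing the data, they were 1, 1 and 3, and 1 between wild-type populations, where 0.705%, 0.335%, 1.38% and 2.58% of all features were called. The fit without deficient LSK replicate 1, which gave 3 members in LSK, called 10.1% of all features there, and the one without replicate 2 called 0.

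Signs turned under normexp correction for Urod in LSK (−0.081), under quantile normalization for Uros and Urod between wild-type populations (−0.17 and −0.003), and with the mean of both probes for Alas1 in LSK (0.10). With the 2 arrays left out together they turned for Alas1 (0.13), Alad (0.76) and Uros (1.05) in LSK and for Alad in GMP (0.20) and the average (0.48). With single arrays left out, Alas1 in LSK ran from −2.65 to 0.13, Alad from −1.81 to 0.76, Uros from −1.34 to 1.05 and Alad in GMP from −2.17 to 0.20. The median difference of all features in LSK, 0.12, was −0.21 under quantile normalization, −0.46 under median scaling and 0.42 under normexp correction.

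Signal over background limits Alas2 on the wild-type arrays, and Alad and 2 Tfrc probes on deficient LSK replicate 2.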
